A study of Homo sapiens with 12 samples.

Results

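The enzymes described here are 9 genes of glycolysis, out of 59577 genes in the deposited table: PFKP, ALDOA, ALDOC, GAPDH, PGK1, PGAM1, ENO2, LDHA and LDHB. They were chosen by name. A row was kept when the mean of its 6 hyperoxia columns equalled the authors' deposited hyperoxia mean within 0.01 TPM, and all 9 rows passed. The cells were H1299, an established human lung cancer line that the labels describe as adenocarcinoma. In 6 samples (hyperoxia) the cells had been kept for 24 h in 60% oxygen, 5% CO2 and 35% nitrogen, and in 6 samples (normoxia) in 21% oxygen, 5% CO2 and 74% nitrogen. The values were TPM, transcript abundances per length scaled to a common total. Nothing in the labels ties each sample to its own culture, so p-values here reflect the spread among the deposited samples, and that spread may be technical.

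Glycolysis splits glucose into pyruvate in the cytosol and yields ATP and NADH without using oxygen. Phosphofructokinase commits sugar to the pathway and aldolase cleaves the product, after which GAPDH, phosphoglycerate kinase, phosphoglycerate mutase and enolase carry the fragments towards pyruvate. Lactate dehydrogenase then converts pyruvate to lactate and regenerates NAD+. Tumour cells often run the pathway at a high rate also in the presence of oxygen, and many of its genes are known to be switched on by HIF, a transcription factor that is stable when oxygen is scarce.

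The promoters of the 3 genes that passed the test below (ALDOA, PGK1 and PGAM1) and of the LDHA and LDHB pair are shown because oxygen was the variable and HIF binds DNA at short cores, ACGTG or GCGTG. Each line holds the 250 bases before a transcription start, from RefSeq (GRCh38.p14), in lower case with these cores in capitals on either strand. The core ACGTG also lies inside CACGTG, which other factors such as MYC bind and which counts as a match on each strand. PGK1 is chrX:78103998-78104247 on the plus strand. PGAM1 is chr10:97427568-97427817 on the plus strand. For ALDOA, which has 3 listed starts, the third is shown, chr16:30065510-30065759 on the plus strand. For LDHA the first of 2 is shown, chr11:18394313-18394562 on the plus strand. LDHB is chr12:21657843-21658092 on the minus strand. Which start was in use in these cells was not measured, and the starts shown for ALDOA and LDHA were picked with the matches already known.
PGK1: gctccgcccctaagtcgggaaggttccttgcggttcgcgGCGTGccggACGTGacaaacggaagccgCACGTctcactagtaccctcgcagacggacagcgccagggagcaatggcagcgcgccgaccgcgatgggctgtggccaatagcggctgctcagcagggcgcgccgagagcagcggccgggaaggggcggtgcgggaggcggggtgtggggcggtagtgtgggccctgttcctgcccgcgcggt
PGAM1: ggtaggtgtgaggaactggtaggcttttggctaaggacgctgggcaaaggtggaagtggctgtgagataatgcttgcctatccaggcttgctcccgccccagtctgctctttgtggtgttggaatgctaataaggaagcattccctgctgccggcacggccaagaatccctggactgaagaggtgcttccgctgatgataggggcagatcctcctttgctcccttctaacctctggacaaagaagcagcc
ALDOA: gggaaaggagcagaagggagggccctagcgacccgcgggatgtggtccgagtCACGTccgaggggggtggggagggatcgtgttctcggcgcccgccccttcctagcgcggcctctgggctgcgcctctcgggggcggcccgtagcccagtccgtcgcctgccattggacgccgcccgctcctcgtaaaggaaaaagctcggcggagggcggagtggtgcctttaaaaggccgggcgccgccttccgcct
LDHA: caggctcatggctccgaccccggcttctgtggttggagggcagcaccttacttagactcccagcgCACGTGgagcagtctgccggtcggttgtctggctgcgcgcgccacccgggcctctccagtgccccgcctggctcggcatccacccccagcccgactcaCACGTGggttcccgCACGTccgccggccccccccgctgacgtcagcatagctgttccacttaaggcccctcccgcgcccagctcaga
LDHB: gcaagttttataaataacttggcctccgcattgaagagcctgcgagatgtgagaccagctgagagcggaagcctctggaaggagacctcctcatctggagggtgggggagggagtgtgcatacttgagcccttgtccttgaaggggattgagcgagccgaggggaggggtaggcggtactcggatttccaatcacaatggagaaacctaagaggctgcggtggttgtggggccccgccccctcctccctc

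PGK1 held 3 matches, at 211, 202 and 183 bases before the start, none of them within CACGTG. LDHA held 5 matches, 4 of them in 2 copies of CACGTG. The ALDOA window held 1 match, and PGAM1 and LDHB held none. Of 35116 promoter entries in the RefSeq table, 43.2% held at least 1 match and 7.76% at least 3. Among the other members, ALDOC had 5 matches, 2 of them in 1 CACGTG, GAPDH had 2, both in 1 CACGTG, and ENO2 had 1. The 4 listed starts of PFKP had 0, 0, 1 and 3. The ALDOA starts not shown had 1 match and 2 matches, the latter in 1 CACGTG, and the second LDHA start had 1. A match is a string of letters and not a measured binding site.

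The 12 samples summed to between 996138 and 998797 TPM, and 14275 to 14635 genes reached 1 TPM. TPM keeps no read depth, so depth and counting error are unknown. The epithelial keratins KRT8 and KRT18 and the mesenchymal VIM were high (VIM at 3351 and 3004 TPM), while 3 of the 6 epithelial markers (EPCAM, CDH1 and KRT19) were below 1 TPM in every sample. All 7 markers of alveolar type II cells and lung adenocarcinoma, NKX2-1 among them, were below 1 TPM in every sample. Leukocyte markers summed to at most 0.25 TPM, endothelial markers to at most 1.55 TPM and fibroblast markers to at most 2.0 TPM. Normoxia replicates 1 to 3 and 4 to 6 lay on opposite sides of the leading component of within-group variation, which held 16.2% of it. Results are therefore also given without normoxia replicates 4 to 6 where that changed a call. The reverse, leaving out normoxia replicates 1 to 3 together, was not run, so these results show only 1 side of that split.

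At 60% oxygen ALDOA rose by 0.24 on the log2 scale and PGAM1 by 0.11, while PGK1 fell by 0.11. The other 5 tested members (PFKP, GAPDH, ENO2, LDHA and LDHB) did not pass the test, and ALDOC was too low to be tested. Thus 2 of the 8 tested members were called higher and 1 lower, at an adjusted p under 0.05 from limma with Benjamini-Hochberg adjustment over 14520 genes. Over all genes tested, 11.7% were called higher and 5.63% lower, 17.3% in all. The members' median log2 fold change was 0.02, against 0.03 for all genes tested. The split of calls over all genes depends on scaling, with 67.5% of calls higher as deposited and 50.04% with median-of-ratios scaling. TPM is a share of the sequenced RNA, so fewer cells of a kind and less RNA per cell cannot be told apart. Log2 fold changes from limma were fitted to log2(TPM + 1), which understates changes of low genes.

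**Figure D1:**
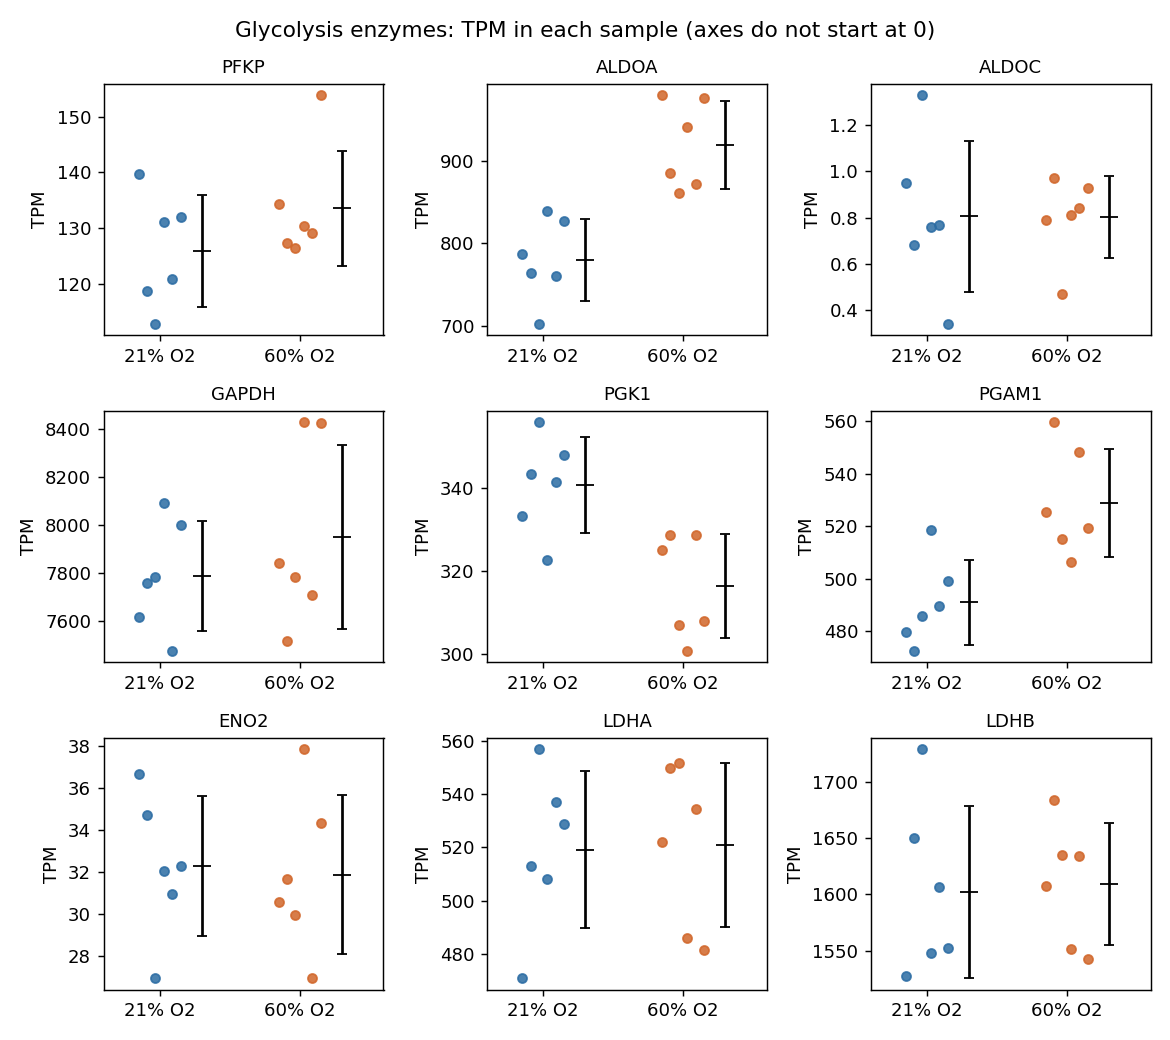
TPM of each of the 9 enzymes in every sample, 6 at 21% oxygen (blue) and 6 at 60% oxygen (orange), replicates 1 to 6 from left to right; the bar beside each group is the mean ± SD, and the axes do not start at 0. For ALDOA all hyperoxia samples lie above all normoxia samples, while the groups of the other 8 overlap.

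PFKP (ENSG00000067057) encodes the platelet-type phosphofructokinase of the committed step. Its level ran from 113 TPM through a median of 126 to 139.7 TPM in normoxia, and from 126 through 129.8 to 154 TPM in hyperoxia. The groups overlapped, with only hyperoxia replicate 6 above every normoxia sample. Means were 126 ± 10.04 and 134 ± 10.3 TPM (SD, n = 6 each), a log2 fold change of 0.09 (SE 0.06, limma adjusted p = 0.353). The 95% interval ran from -0.04 to 0.21.

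ALDOA (ENSG00000149925), the main aldolase of most tissues, was the only member whose groups did not overlap. Its normoxia values ran from 703 through a median of 776 to 839.6 TPM, and its hyperoxia values from 861 through 913 to 979 TPM. All 6 hyperoxia samples were above all 6 normoxia samples, a pattern seen in 6.2% of the genes tested. No member had all hyperoxia samples below all normoxia samples, against 2.58% of the genes tested, so 1 of 8 members had groups apart, against 8.78%. Means were 780.3 ± 49.6 and 919 ± 53.1 TPM (SD, n = 6 each), which is 1.18-fold higher with a 95% interval of 1.10 to 1.26. The log2 fold change was 0.24 (SE 0.05, limma adjusted p = 0.00437), and 0.29 without normoxia replicates 4 to 6 (limma adjusted p = 0.00945).

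ALDOC (ENSG00000109107), the aldolase known from brain, stood near the limit of the data. It ranged from 0.34 to 1.33 TPM in normoxia and from 0.47 to 0.97 TPM in hyperoxia, and its mean over all samples was below the minimum of 1 TPM for testing. Means were 0.805 ± 0.326 and 0.802 ± 0.177 TPM (SD, n = 6 each). With no filter on low values its log2 fold change was 0.01 (SE 0.12, limma adjusted p = 0.979). It supplied 0.105% ± 0.049 of the ALDOA plus ALDOC total in normoxia and 0.087% ± 0.019 in hyperoxia (SD, n = 6 each). The log2 ratio of ALDOC to ALDOA differed by -0.23 between hyperoxia and normoxia, which did not pass the exact permutation test (two-sided p = 0.167, 0.333 adjusted over the 2 ratios tested). With 1 added to each value, this is the ALDOC difference of 0.01 less the ALDOA difference of 0.24, so it is no result apart from the rise of ALDOA. Without normoxia replicate 6, the sample with the lowest ALDOC value, the difference was -0.32 (exact permutation, adjusted p = 0.0303).

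GAPDH (ENSG00000111640), the dehydrogenase that yields NADH and a common reference gene, was the most abundant member. In normoxia it ran from 7474 through a median of 7770.3 to 8093 TPM, and in hyperoxia from 7516 through 7811 to 8429.8 TPM. The groups overlapped over most of their range, with hyperoxia replicates 4 and 6 above every normoxia sample. Means were 7788 ± 231 and 7950.1 ± 385 TPM (SD, n = 6 each), with a log2 fold change of 0.03 (SE 0.03, limma adjusted p = 0.588). The 95% interval of the ratio was 0.973 to 1.07. GAPDH made up 66.7% ± 0.62 of the summed TPM of the 9 enzymes in normoxia and 66.2% ± 1.44 in hyperoxia (SD, n = 6 each). The sum itself was 1.17% ± 0.026 of all TPM in normoxia and 1.20% ± 0.032 in hyperoxia.

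PGK1 (ENSG00000102144), the kinase that makes ATP directly from a glycolytic intermediate, was the only member called lower. Its normoxia values ran from 323 through a median of 342 to 356 TPM, and its hyperoxia values from 301 through 317 to 329 TPM. In normoxia 5 samples were above every hyperoxia sample, and replicate 4 was the exception. Means were 341 ± 11.6 and 316 ± 12.5 TPM (SD, n = 6 each), or 0.929 times the normoxia level (95% interval 0.885 to 0.975). The log2 fold change was -0.11 (SE 0.03, limma adjusted p = 0.038). The call was lost when a single library was left out: normoxia replicate 2 (limma adjusted p = 0.0727), 3 (0.0687), 5 (0.0683) or 6 (0.0731), or hyperoxia replicate 3 (0.0784), 4 (0.0764) or 6 (0.0706). It was also lost without normoxia replicates 4 to 6 (0.092).

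PGAM1 (ENSG00000171314), the phosphoglycerate mutase of most tissues, rose by a like amount. Its normoxia values ran from 472 through a median of 488 to 519 TPM, and its hyperoxia values from 506 through 522 to 559.6 TPM. Of the hyperoxia samples 4 were above every normoxia sample, and 5 normoxia samples were below every hyperoxia sample. Means were 491 ± 16.3 and 529 ± 20.6 TPM (SD, n = 6 each), or 1.08-fold (95% interval 1.03 to 1.13). The log2 fold change was 0.11 (SE 0.03, limma adjusted p = 0.0315). With median-of-ratios scaling it was 0.08 (limma adjusted p = 0.176). Leaving out a single library also ended the call, for normoxia replicate 1 (limma adjusted p = 0.0632), 2 (0.0721), 3 (0.0502) or 5 (0.0588) and for hyperoxia replicate 1 (0.0507), 2 (0.0673) or 5 (0.0736).

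ENO2 (ENSG00000111674), the enolase known as a neuronal marker, ran from 27.0 through 32.2 to 36.7 TPM in normoxia and from 27.0 through 31.1 to 37.9 TPM in hyperoxia. The ranges were nearly the same. Means were 32.3 ± 3.32 and 31.9 ± 3.78 TPM (SD, n = 6 each), with a log2 fold change of -0.02 (SE 0.08, limma adjusted p = 0.908) and a 95% interval of -0.20 to 0.16. The authors' deposited table nevertheless lists ENO2 with a fold change of 0.566 and a log2 fold change of -0.81, beside an adjusted p of 0.885. The log2 of 0.566 is -0.82, so these 2 deposited numbers also differ from each other, although the deposited group means equal the means of the sample columns.

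LDHA (ENSG00000134333) and LDHB (ENSG00000111716) encode the subunits of lactate dehydrogenase, of which LDHA predominates in muscle and LDHB in heart. LDHA ran from 471 through a median of 521 to 557 TPM in normoxia and from 481 through 528 to 552 TPM in hyperoxia. LDHB ran from 1527 through 1579 to 1729 TPM in normoxia and from 1543 through 1621 to 1684 TPM in hyperoxia. For both genes the range in hyperoxia lay inside that in normoxia. LDHA means were 519 ± 29.4 and 521 ± 30.9 TPM, and the 95% interval of its ratio was 0.937 to 1.07 (SD, n = 6 each; limma adjusted p = 0.962). LDHB means were 1602 ± 76.7 and 1609 ± 54.0 TPM, with an interval of 0.956 to 1.06 (SD, n = 6 each; limma adjusted p = 0.919).

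LDHB transcripts outnumbered LDHA transcripts per length by 3.09 ± 0.12 times in normoxia and 3.09 ± 0.092 times in hyperoxia (SD, n = 6 each). The lowest ratio in any sample was 2.93 and the highest 3.24. The log2 ratio of LDHA to LDHB differed by -0.0023 between the groups, which did not pass the exact permutation test (two-sided p = 0.948, also 0.948 adjusted over the 2 ratios).

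The order of levels was GAPDH, LDHB, ALDOA, LDHA, PGAM1, PGK1, PFKP, ENO2 and ALDOC, from highest to lowest TPM. For 7 of the 8 neighbouring pairs the higher gene led in all 12 samples and the ranges did not overlap within either group. LDHA and PGAM1 were the exception: LDHA was above PGAM1 in 5 of 12 samples, and their ranges overlapped in both groups. GAPDH was 4.90 times LDHB, and ENO2 was 39.9 times ALDOC. Within groups GAPDH, PGK1, PGAM1 and LDHB varied least, with coefficients of variation between 2.97% and 4.85%. ENO2 varied by 10.3% and 11.9%, and ALDOC by 40.5% and 22.1%.

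**Figure D2:**
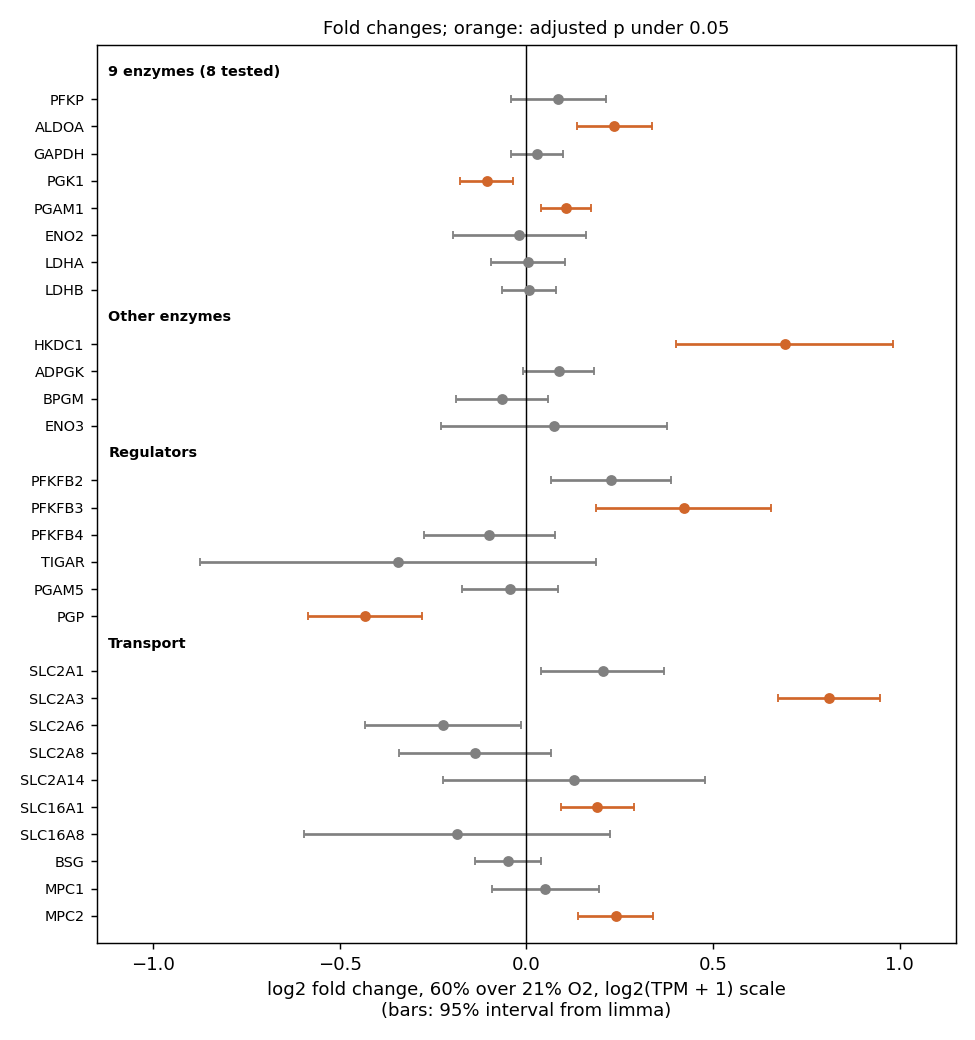
Log2 fold change, 60% over 21% oxygen, for the 8 tested members and for other tested genes of the pathway whose deposited values agree, with 95% intervals from limma; orange marks an adjusted p under 0.05. Among the 8 members the fold changes lie between -0.11 (PGK1) and 0.24 (ALDOA), and SLC2A3 lies at 0.81. HKDC1, at 0.69, is drawn in orange but reached the minimum of 1 TPM only through hyperoxia, so its call is not counted.

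The deposited fold changes were set beside the sample values for these enzymes. In the authors' deposited table ALDOA had a log2 fold change of 0.18 (adjusted p = 6.81e-07), PGK1 -0.11 (adjusted p = 0.031) and PGAM1 0.08 (adjusted p = 0.082). PGAM1 therefore did not pass the authors' adjusted p, while ALDOA and PGK1 did; 30% of the 14520 genes had an adjusted p under 0.05 in that table. For the 8 members other than ENO2 the authors' log2 fold change minus the log2 ratio of the mean TPM lay between -0.077 and -0.0012. Over 8370 genes with a mean of at least 10 TPM the median of this difference was -0.02, and it was within 0.1 for 89.7%. For ENO2 it was -0.80.

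Of the other glycolysis enzymes with a mean of at least 1 TPM, 8 of 12 had deposited numbers that contradict each other: HK1, HK2, GPI, PFKL, PFKM, TPI1, ENO1 and PKM. In the whole table this held for 78 genes. GPI, which makes fructose 6-phosphate, is listed with a hyperoxia mean of 429 TPM in the authors' deposited table, while its 6 hyperoxia columns average 162 TPM. ENO1, the enolase of most tissues, is listed there with a log2 fold change of -2.01, while its columns average 2303 TPM in normoxia and 2307 TPM in hyperoxia. PKM, the last enzyme before pyruvate, averaged 1836 and 1429 TPM without overlap between groups, beside a deposited p of 0.931. These 3 were chosen after their values were seen. No direction is drawn here for these 8 genes. For PFKL, TPI1, ENO1 and PKM the deposited group means equal the column means and only the fold change contradicts its log2, as for ENO2. ENO2 was kept because the rule for members looked only at the hyperoxia mean.

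**Figure D3:**
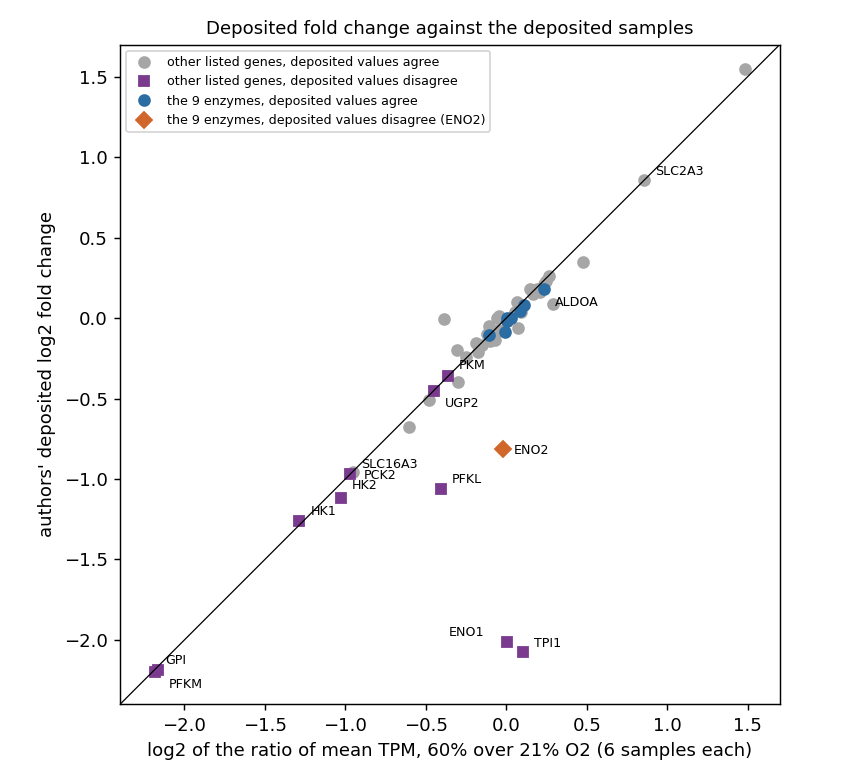
The authors' deposited log2 fold change against the log2 ratio of mean TPM over the 6 samples of each group, for the 9 enzymes and other listed genes of glucose metabolism; the line marks equality, and squares and the diamond mark genes whose deposited fold change and log2 fold change contradict each other. ENO2 lies at -0.02 on the horizontal and -0.81 on the vertical axis, while the other 8 members lie near the line.

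Among the other glycolysis enzymes only 4 tested genes had deposited values that agree, and ADPGK, BPGM and ENO3, named here only to complete the count, were not called. The remaining gene was HKDC1, a hexokinase relative, at 0.538 ± 0.160 TPM in normoxia and 1.503 ± 0.414 TPM in hyperoxia (SD, n = 6 each). It reached the minimum of 1 TPM only through hyperoxia and was tested in 8 of the 12 fits with a sample left out, so its call is not counted here. Of 6 regulators, PFKFB3, which makes the activator of phosphofructokinase, rose by 0.42 (SE 0.11, limma adjusted p = 0.0178). PGP, a phosphatase that removes side products of glycolysis, fell by 0.43 (SE 0.07, limma adjusted p = 0.0013), and 4 regulators were not called. The PFKFB3 call was lost without normoxia replicates 4 to 6 (limma adjusted p = 0.0711) and when genes of any level were tested (0.051). Of 10 transport genes 3 rose and 7 were not called, where 11.7% of all genes tested were called higher and 5.63% lower. The median log2 fold change was 0.09 for transport genes and -0.07 for regulators, against 0.03 for all genes tested. SLC2A3, a glucose importer, rose by 0.81 (SE 0.06). MPC2, a subunit of the mitochondrial pyruvate carrier, rose by 0.24 and the lactate carrier SLC16A1 by 0.19. The SLC16A1 call was lost without normoxia replicates 4 to 6 (limma adjusted p = 0.101) and by the exact rank-sum test (adjusted p = 0.0559).

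Within groups the members did not vary independently from sample to sample. The Pearson correlation of their deviations from the group mean, on log2(TPM + 1) over 12 samples, was 0.81 between LDHA and LDHB and 0.76 between PFKP and ALDOA. Across these pairs it was negative, at -0.85 for PFKP and LDHB and -0.82 for ENO2 and LDHA. PGK1 varied with LDHB (0.70), and GAPDH with ALDOA (0.59). The pairs of PFKP with LDHB and of LDHA with LDHB had the same sign in each condition, at -0.96 and 0.73 in normoxia and -0.70 and 0.95 in hyperoxia. GAPDH and LDHA did not: their correlation was 0.05 over the 6 normoxia samples and -0.96 over the 6 hyperoxia samples, a difference that was not tested. These are descriptions over few samples whose TPM share 1 total. The median GC content of the coding transcripts in GENCODE 29 was 57.9% for PFKP, 60.7% for ALDOA, 56.7% for GAPDH and 55.2% for ENO2, and 43.3% for PGK1, 45.04% for LDHA and 44.4% for LDHB. It was 55.5% for ALDOC and 52.8% for PGAM1. The correlation of the within-group deviations with each sample's median-of-ratios scaling factor differed by member. It was 0.87 for ALDOA, 0.86 for PFKP, 0.59 for ENO2, 0.43 for GAPDH, 0.11 for PGAM1, -0.23 for ALDOC, -0.40 for PGK1, -0.78 for LDHA and -0.87 for LDHB. After that scaling the correlation was 0.91 between LDHA and LDHB, 0.90 between PGK1 and LDHB, and -0.75 between PFKP and LDHB. Between PFKP and ALDOA it was 0.47 (from 0.76). For ENO2 it was 0.30 with PFKP (from 0.53) and 0.32 with ALDOA (from 0.55). For PGAM1 it was 0.64 with PGK1 (from 0.30), 0.78 with LDHA (from 0.38) and 0.65 with LDHB (from 0.12). For GAPDH it was 0.17 with ALDOA (from 0.59), -0.07 with PFKP (from 0.46), 0.13 with ENO2 (from 0.46) and 0.16 with LDHB (from -0.57). The part of GC content or scaling in these correlations was not tested.

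**Figure D4:**
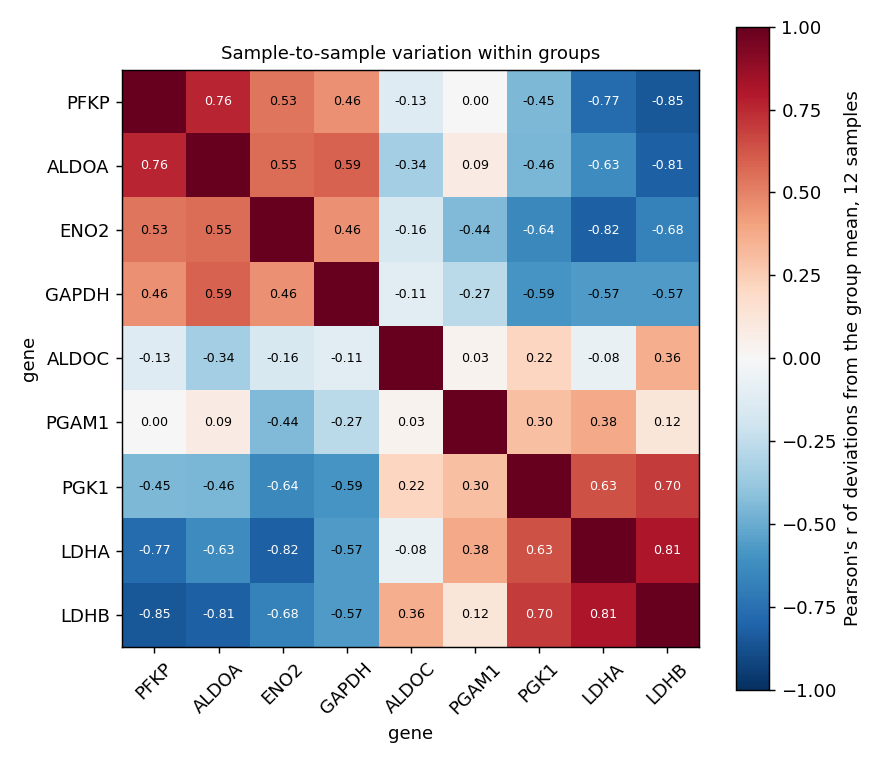
Pearson correlation of the deviations from the group mean on log2(TPM + 1) for each pair of the 9 enzymes over 12 samples; red is positive and blue negative. As deposited, PFKP, ALDOA, ENO2 and GAPDH are positively correlated among themselves (0.46 to 0.76), as are PGK1, LDHA and LDHB (0.63 to 0.81). Every correlation between these sets is negative. After median-of-ratios scaling the correlation of GAPDH was -0.07 with PFKP, 0.17 with ALDOA, 0.13 with ENO2 and 0.16 with LDHB. With that scaling it was 0.47 between PFKP and ALDOA, 0.30 between PFKP and ENO2, and 0.32 between ALDOA and ENO2. PGAM1, in neither set as deposited, then had 0.64 with PGK1, 0.78 with LDHA and 0.65 with LDHB.

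By the same measure, among 8388 genes with a mean of at least 10 TPM, LDHA was most like NOP56 (0.96), FABP5 (0.96) and SDHB (0.94). LDHB was most like MYL12B (0.96), PSMA6 (0.95) and RPS13 (0.95), and PGK1 most like GTF2F2 (0.95), GLO1 (0.93) and NME1 (0.93). ALDOA was most like KANK2 (0.96), PI4K2A (0.95) and SCARB1 (0.95), and PFKP most like MAN2C1 (0.97), PHC2 (0.95) and TMEM129 (0.95). ENO2 was closest to CERCAM (0.94), PGAM1 to CXCL1 (0.89) and ALDOC to RPL15 (0.84). High values were common: 32.5% of the genes had a correlation above 0.5 with PFKP and 33.9% with ALDOA.

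Several members have near-identical copies in the genome, and no source used here says how the authors assigned reads that fit several places. The table held 87 rows named as pseudogenes of members, 62 of them of GAPDH, and 45 of the 87 were listed at 0 in all samples. Summed per parent they were small: the GAPDH copies added to 3.42 ± 0.980 TPM in normoxia and 3.64 ± 1.38 TPM in hyperoxia, or 0.0449% of GAPDH. For LDHA the share was 0.343%, most of it LDHAP4, and for PGAM1 it was 0.327%. The PGAM1 copies measured 1.93 ± 0.462 and 1.41 ± 0.334 TPM (SD, n = 6 each), against means of 491 and 529 TPM for PGAM1 itself.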

How the data were processed

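Total RNA of 12 samples was sequenced, and groups came from the sample titles and treatment labels. The submitters' processing notes name HTSeq 0.9.1 and edgeR 3.16.5, without their roles, and a mouse build, although every identifier is a human Ensembl one. The labels name an Illumina TruSeq kit and the design text a directional kit after removal of ribosomal RNA, so the library type is not settled. No source used here gives the aligner, the annotation or the TPM formula.

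Per the file headers the deposited values are TPM for each sample and group mean, although the table is named for another unit. Per the file headers the authors also deposited a fold change (a ratio) with its log2, and p-values before and after adjustment. From these, log2(TPM + 1) of genes with a mean of at least 1 TPM was tested with limma 3.58.1 in R 4.3.3 (eBayes with trend, 2-sided, all 12 samples, Benjamini-Hochberg over 14520 genes, threshold 0.05). Of the genes tested, 77 have contradicting deposited values and stayed in the fit. A row counts as contradicting when a deposited group mean differs from its 6 columns by over 0.01 TPM, or the log2 fold change from the log2 of the fold change by over 1e-06. The 2 isozyme ratios were compared by an exact permutation test over 924 arrangements, where the smallest p is 0.00216. The limma step and the permutation test were checked on simulated data. For limma the planted changes were larger than those of the called members, and the noise was independent between genes. That check therefore does not cover changes as small as these, or variation that genes share from sample to sample.

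The 9 members, the gene lists and the tests were chosen with earlier results of these data known. All members are named whatever their values, with up to 4 called genes per list (smallest p, deposited values agreeing) and, per member, up to 3 genes most like it. The text marks any other gene singled out on its values, and some genes under these rules are not reported here. Promoters are from RefSeq (GRCh38.p14), matched by symbol for all 9 members; proteins were not used here. The depth per sample is unknown, and no counting intervals are given. Alternatives covered the pseudocount, filters, 3 scalings, eBayes settings, arrayWeights, a replicate block, an exact rank-sum test, each sample left out, normoxia replicates 4 to 6 left out and contradicting rows left out.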

Additional observations from a re-analysis of the deposited data

Results flagged for a closer look

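Among the 22 groups of 6 values examined (9 genes and 2 ratios in each condition), 2 held a sample far from the others, and chance flags about 1 in 20 such groups. PFKP in hyperoxia replicate 6 measured 154 TPM, with the next highest at 134 TPM. Without that sample the PFKP log2 fold change was 0.04 (limma adjusted p = 0.602). ALDOC in hyperoxia replicate 3 measured 0.47 TPM, with the next lowest at 0.79 TPM.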

How the results depend on the processing

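ALDOA stayed higher and called in all 25 alternatives run (0.21 to 0.29; limma or exact rank-sum adjusted p from 0.00131 to 0.0303). PGK1 kept its direction and lost its call in 12 of 25 (adjusted p 0.0207 to 0.092 over all), and PGAM1 lost it in 14 of 25 (0.018 to 0.176). The members called higher therefore numbered 1 in place of 2 with no filter on low values, the 3 scalings, eBayes without trend, the exact rank-sum test and a replicate block. The members called lower numbered 0 in place of 1 with no filter, trimmed-mean factors, eBayes without trend, the exact rank-sum test and without normoxia replicates 4 to 6. With single samples left out these counts ranged from 1 to 2 and from 0 to 1. Over all genes 1698 were higher and 818 lower; 980 and 374 without normoxia replicates 4 to 6, 1277 lower with median-of-ratios scaling, 1259 with trimmed-mean factors and 515 by the rank-sum test. Left-out samples gave 1317 to 1563 higher and 602 to 937 lower. The share of calls that were higher was 54.3% after quantile normalisation and 51.0% with trimmed-mean factors. Uncalled values near 0 changed sign: GAPDH to -0.0018, LDHA to -0.026 and LDHB to -0.024 with median-of-ratios scaling. With trimmed-mean factors LDHA was -0.024 and LDHB -0.022; LDHA was -0.012 after quantile normalisation and LDHB -0.022 without normoxia replicates 4 to 6. With left-out samples ENO2 ranged from -0.068 to 0.026, LDHA from -0.023 to 0.027 and LDHB from -0.0067 to 0.029. The LDHA to LDHB ratio ranged from -0.016 to 0.012 with left-out samples and was 0.044 without normoxia replicates 4 to 6. The ALDOC to ALDOA ratio ranged from -0.32 to -0.12 with left-out samples and passed without normoxia replicates 4 to 6 at -0.42 (exact permutation, adjusted p = 0.0476). That set keeps normoxia replicate 3, the sample with the highest ALDOC value (1.33 TPM). Over all genes, same-numbered samples did not deviate together (correlations from -0.12 to 0.017), which neither shows nor excludes a pairing by number. With a replicate block the SE fell from 0.047 to 0.025 for ALDOA and from 0.032 to 0.019 for GAPDH. Among the tested members it rose only for PGAM1, from 0.031 to 0.036. The block gave 1656 genes higher and 889 lower, with PGAM1 at limma adjusted p = 0.0765 and PFKFB3 at 0.0551. Where a call was lost, the cause was not tested.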

Other observations

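Genes on the branches around glycolysis are given here by the same test. Of 4 tested genes of gluconeogenesis with agreeing deposited values, 1 fell and 3 were not called (list median -0.12, all genes 0.03). The gene that fell was PCK2, the mitochondrial enzyme that makes phosphoenolpyruvate, which averaged 48.3 ± 10.2 TPM in normoxia and 24.99 ± 3.54 TPM in hyperoxia (SD, n = 6 each). Its log2 fold change was -0.91 (limma adjusted p = 4.75e-04). Of 13 genes of glycogen and of pathways that branch off glycolysis, 3 rose, 1 fell and 9 were not called (list median 0.00). Over all genes tested 11.7% were called higher and 5.63% lower. TALDO1 and TKT, which return pentose phosphates to glycolysis, rose by 0.17 and 0.26, and PGM2, a phosphopentomutase, by 0.23. PHGDH, which draws 3-phosphoglycerate into serine synthesis, averaged 145 ± 21.2 TPM in normoxia and 95.5 ± 14.1 TPM in hyperoxia (SD, n = 6 each). It was called lower, at -0.60 on the log2 scale (limma adjusted p = 0.00257).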
